A study of Rattus norvegicus with 4 samples.

Results

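The constitutive subunits of the proteasome were followed in rat cochlear lateral wall treated with 3-nitropropionic acid (3-NP). Members were all genes whose symbol is Psma, Psmb, Psmc or Psmd followed by a number, without the interferon-inducible Psmb8, Psmb9 and Psmb10, and with a probe set assigned to that gene alone. Of 36 such genes in the RefSeq annotation of the rat, 33 were found on the arrays, among 13810 genes with such a probe set in all. On the day 1 array there were 30 members with 31 probe sets, and on the day 3 array 9 members with 14 probe sets. Psma8, Psmb6 and Psmb11 had no probe set of their own on either array and were not analysed here.

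The samples were 4 arrays in 4 groups, 1 array each: saline at day 1, 3-NP at day 1, saline at day 3 and 3-NP at day 3. Per the labels' protocols, the animals were female Sprague-Dawley rats of 180 to 210 g, aged 8 to 10 weeks, in all groups. The left ear received saline or 3-NP at its round window niche, and the right cochlea was destroyed surgically. The labels place the tissue in the upper basal turn in one field and in the second turn, without the stria vascularis, in another. The 3-NP arrays are labelled 300 mM. 3-NP inhibits succinate dehydrogenase, complex II of the respiratory chain, and the labels call the treatment an acute mitochondrial dysfunction model. The sources used here do not say how many animals stand behind an array. With 1 array per group, no difference has a replicate check, no p-value was computed, and every ratio describes a pair of arrays.

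The proteasome degrades proteins tagged with ubiquitin. Its core particle is a barrel of stacked rings, with alpha subunits (Psma genes) at the ends, which gate the entry, and beta subunits (Psmb genes) inside, some of which cut the protein chain. The regulatory particle caps the barrel: its ATPases (Psmc genes) unfold the substrate and feed it in, and its non-ATPase subunits (Psmd genes) bind ubiquitin, remove it or hold the lid together. Interferon exchanges the catalytic beta subunits for Psmb8, Psmb9 and Psmb10, the immunoproteasome, which serves antigen presentation. When proteasome activity falls short, the transcription factor Nrf1, encoded by Nfe2l1, is known to raise the genes of all these classes together through antioxidant response elements in their promoters.

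Signals are MAS5 intensities as deposited. The day 1 and day 3 pairs lie on different array designs, so levels were not compared across them. The arrays had median signals of 44.9 (saline) and 60.7 (3-NP) at day 1, and of 18.7 and 20 at day 3. A log2 ratio is that of 3-NP over saline. Its median was 0.44 over the 6533 genes measured at day 1 and 0.10 over the 3972 measured at day 3. Ratios below are relative to that median gene unless called as deposited. Ratios of 3' to 5' signal lay between 2.53 and 3.22 for the Actb controls and between 1.17 and 1.46 for the Gapdh controls. The lateral wall fibrocyte markers Slc12a2, Gjb2 and Gjb6 were measured at day 1, and Coch at day 3 (6548 and 5677). Of the stria and melanocyte markers 5 were measured at day 1 and 5 at day 3, in tissue labelled as taken without the stria.

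At day 1 the constitutive subunits stood slightly and almost uniformly higher in the 3-NP array. Relative to the median gene, 29 of 30 lay above 0, against 50% of all measured genes, which is fixed by the centring. The median log2 ratio was 0.43, or 1.34-fold, with a range from -0.15 (Psmd1) to 0.84 (Psma3). In size the differences were small: 7 members were at least 1.5-fold higher (23.3%, against 17.1% of all genes) and 0 at least 1.5-fold lower (against 16.6%). Not a single member was 2-fold higher or lower, 0 of 30 each way, against 7.76% and 6.47% of all genes. The share beyond 1.5-fold is near the background.

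The members also lay close together. Their SD was 0.22, against 0.78 over all measured genes and 0.73 over the 3862 genes in the same range of signal. Those 3862 genes had a median of 0.00. They are most of the genes used for the centring, which by itself holds that median near 0. The SD of 1 probe set was taken from genes with several probe sets. It is the SD of the difference in log2 ratio between the brightest and next probe set, divided by the square root of 2. For probe sets above the lower end of that range of signal it was 0.30 (348 genes). By that measure 24 of 30 members were above the median gene by more than 1 SD, against 31.1% of all genes, and 0 below it by 1 SD, against 30.6%. The 6 members past 2 SD are near the background of 16.7%. With the SD over all measured probe sets, 0.35, the counts were 22 past 1 SD (28.0% of all genes) and 4 past 2 SD (13.3%). Differences between animals or dissections are not part of this SD, and the SD among the members, 0.22, was no larger.

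**Figure D1:**
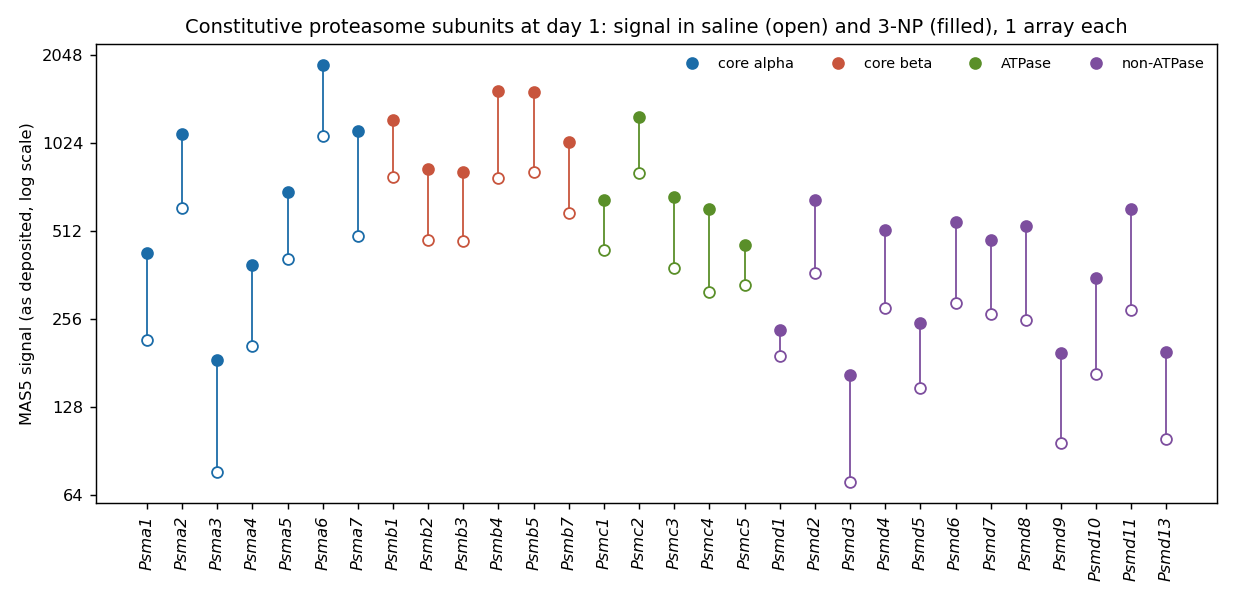
MAS5 signal (log scale) of the 30 constitutive subunits at day 1, by class, with saline as open and 3-NP as filled circles, 1 array each. Every member had the higher deposited signal in 3-NP, with the smallest gap for Psmd1 (192 and 235) and the widest for Psma3 (76.5 and 185).

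As deposited, all 30 members had a higher signal in 3-NP, against 76.9% of all genes, and 27 were at least 1.5-fold higher, against 40.2%. Under lowess, quantile normalization or centring on the 100 probe sets common to both designs, the median stayed between 0.39 and 0.44, and 28 or 29 members lay above 0.

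**Figure D2:**
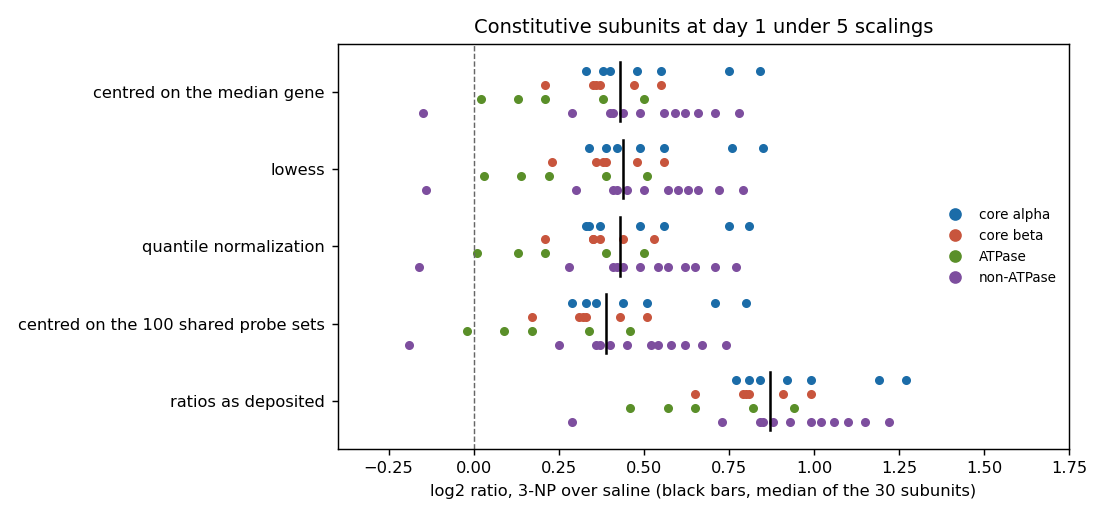
Log2 ratios of the 30 subunits at day 1 under different scalings of the pair of arrays, coloured by class, with a black bar at the median. The median is 0.43 relative to the median gene, 0.39 centred on the shared probe sets, 0.44 under lowess, 0.43 under quantile normalization and 0.87 as deposited.

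Promoter sequence from RefSeq (GRCr8) was available for 29 of the 33 members, as the 250 bases before the annotated start. The antioxidant response element core, TGACNNNGC on either strand, was found in 5 of the 29 (17.2%), against 10.1% of all 33469 promoters. These were the promoters of Psma3, Psmb2, Psmb5, Psmd1 and Psmd9. The box CCAAT, the site of the factor NF-Y, was found on either strand in 16 of the 29 (55.2%), against 34.0% of all promoters. In Psmb2 a CCAAT and an element core overlap by a base.

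The 150 bases upstream of the start are shown for the members at the ends of the day 1 range and for Psmb5, a catalytic subunit. They are, in GRCr8, chr6:95219599-95219748 for Psma3, chr10:84139788-84139937 for Psmd3, chr10:91687403-91687552 for Psmc5 and chr9:94157821-94157970 for Psmd1, all on the plus strand, and chr15:32047380-32047529 on the minus strand for Psmb5. Each is written 5' to 3' in the direction of transcription, with motif matches in capitals.
Psma3: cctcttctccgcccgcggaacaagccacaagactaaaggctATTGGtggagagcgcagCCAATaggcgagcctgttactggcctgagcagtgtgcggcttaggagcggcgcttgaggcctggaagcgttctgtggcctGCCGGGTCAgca
Psmd3: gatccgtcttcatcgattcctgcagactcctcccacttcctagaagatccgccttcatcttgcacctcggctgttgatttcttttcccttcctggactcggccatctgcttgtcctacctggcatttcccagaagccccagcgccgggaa
Psmb5: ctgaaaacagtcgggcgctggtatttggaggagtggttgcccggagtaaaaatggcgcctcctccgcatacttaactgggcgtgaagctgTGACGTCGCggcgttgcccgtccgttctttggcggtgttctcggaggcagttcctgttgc
Psmc5: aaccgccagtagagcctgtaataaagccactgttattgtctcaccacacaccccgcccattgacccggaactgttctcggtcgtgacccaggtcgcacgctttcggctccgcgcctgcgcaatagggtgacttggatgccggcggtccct
Psmd1: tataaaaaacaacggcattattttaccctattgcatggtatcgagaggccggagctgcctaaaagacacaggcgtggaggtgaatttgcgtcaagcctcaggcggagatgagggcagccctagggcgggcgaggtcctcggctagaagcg
Psma3, with the highest ratio, holds CCAAT on both strands and, next to the start, an element core on the minus strand. Psmd3, at 0.78, and Psmc5, at 0.02, hold neither motif in these 150 bases. The element core of Psmd1, the lowest member, lies further upstream, from base -165 to -157. At day 1 the 16 members with CCAAT had a median of 0.41 and the 12 without it 0.43, and the 5 with an element core had 0.47 against 0.40 for the 23 without. The ranges overlapped in both cases, and a link between motif and ratio was not tested.

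Core alpha subunits, which form the outer rings and the gate of the barrel, were all above the median gene, 7 of 7, with a median of 0.48. The signal of Psma3 was 76.5 in saline and 185 in 3-NP, a log2 ratio of 0.84. Psma7 had 495 and 1128, a log2 ratio of 0.75. These were the alpha subunits past 1.5-fold, and Psma3 stood at percentile 89.7 of all genes. Psma1 (217 and 430.5) was at 0.55 and Psma4 (207 and 392) at 0.48. Psma2 (613 and 1098), Psma6 (1080.4 and 1899.6) and Psma5 (411 and 699.6) were at 0.40, 0.38 and 0.33. The lower alpha subunits thus lay little beyond the SD of 1 probe set.

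Core beta subunits were more alike, 6 of 6 above the median gene with a median of 0.37 and an SD of 0.11. Psmb5, the chymotrypsin-like catalytic subunit, had 819.5 in saline and 1537 in 3-NP, a log2 ratio of 0.47. Psmb7, the trypsin-like subunit, had 589 and 1035, a log2 ratio of 0.37. Both catalytic subunits measured thus sat in the middle of the set. Of the non-catalytic beta subunits, Psmb4 (778 and 1541) was highest at 0.55. Psmb2 (478 and 834) was at 0.36 and Psmb3 (474 and 819) at 0.35. Psmb1 (782 and 1226) was lowest at 0.21, and 0 of 6 were past 1.5-fold (against 17.1% of all genes).

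The ATPases, which unfold the substrate, had the lowest class median, 0.21, with 5 of 5 above the median gene. Psmc4 had 316 in saline and 608 in 3-NP, a log2 ratio of 0.50. Psmc3 (382 and 672) was at 0.38 and Psmc2 (808 and 1264) at 0.21. Psmc1 (441 and 653), at 0.13, and Psmc5 (334 and 459), at 0.02, were close to the median gene. Psmc5 passed to -0.02 when the pair was centred on the shared probe sets. The range of the ATPases overlaps that of every other class.

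The non-ATPase subunits had the highest class median, 0.52, and the widest range, with 11 of 12 above the median gene. Past 1.5-fold there were 5 (41.7%, against 17.1% of all genes). The differences between class medians were not tested. Among the lid subunits, Psmd3 had 71.0 in saline and 165 in 3-NP, a log2 ratio of 0.78. Psmd11 had 275 and 611, a log2 ratio of 0.71, and a further probe set with 263 and 462 gave 0.37. With the mean over its probe sets Psmd11 was at 0.54, below 1.5-fold. Psmd8 (255 and 532) was at 0.62, Psmd13 (99.5 and 198) at 0.56 and Psmd6 (290.3 and 552) at 0.49. Psmd7, the partner of the lid's deubiquitinase, was at 0.41 (266 and 479.6). These 6 lid subunits were above the median gene by more than the SD of 1 probe set, as were 24 of all 30 members and 31.1% of all genes. Sem1, a small lid subunit outside the family symbols, was not above it (-0.27, or 0.17 as deposited).

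The large scaffold subunits of the base, which dock ubiquitin-binding proteins, lay apart. Psmd2 had 367 in saline and 656 in 3-NP, a log2 ratio of 0.40, whereas Psmd1 had 192 and 235, a log2 ratio of -0.15 that became 0.29 as deposited. Psmd1 was the only member below the median gene, at percentile 40.3 of all genes, and by less than the spread of a probe set. Psmd4, a ubiquitin receptor, was at 0.44 (279 and 515). Psmd5, Psmd9 and Psmd10 carry the family symbol but encode chaperones that help to assemble the base and are known to leave the finished particle. Psmd10, also called gankyrin, had 166 and 354, a log2 ratio of 0.66. Psmd9 (96.2 and 196) was at 0.59, at the 1.5-fold line, and Psmd5 (149 and 248) at 0.29. Without them the 9 remaining non-ATPase subunits had a median of 0.49, with 3 past 1.5-fold (33.3%, against 17.1% of all genes).

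**Figure D3:**
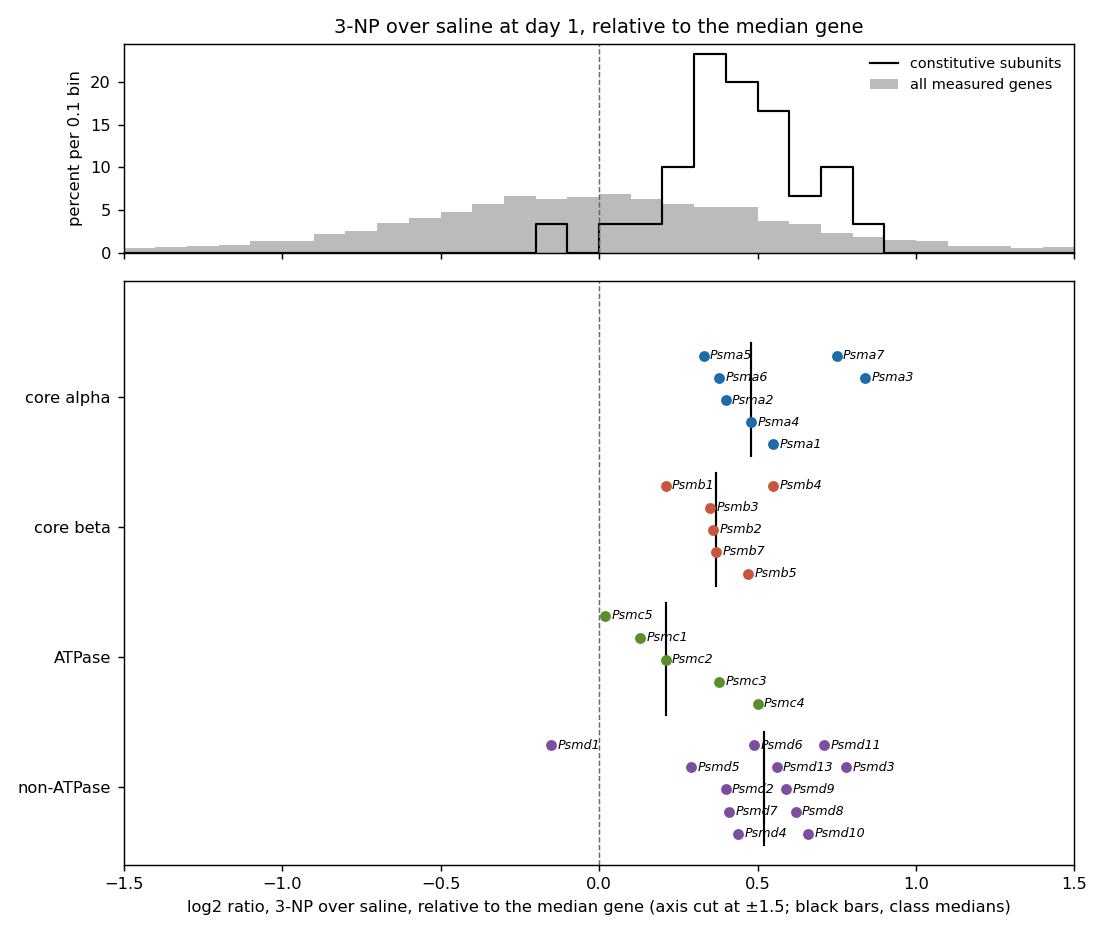
Top, distribution of log2 ratios at day 1 relative to the median gene for all 6533 measured genes (grey) and the 30 constitutive subunits (line), as percent of each set per bin, with the axis cut at the ends. Bottom, each subunit by class with the class median as a bar: only Psmd1 (-0.15, but 0.29 as deposited) lies left of 0, and the class medians run from 0.21 (ATPase) to 0.52 (non-ATPase).

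The excluded interferon-inducible subunits were on a different scale at day 1. Psmb9 had 51.3 in saline and 631 in 3-NP, a log2 ratio of 3.18, Psmb8 (56.7 and 454) was at 2.56 and Psmb10 (72.0 and 517) at 2.41. The lowest of these 3 thus lay above the highest constitutive subunit, Psma3 at 0.84. Psme2, a subunit of the interferon-inducible activator cap, had 344 and 1356, a log2 ratio of 1.54. Its partner Psme1 (734 and 1564) was at 0.65, the activator gene Psme4 (225 and 424) at 0.47 and the inhibitor gene Psmf1 (112 and 224) at 0.56, within the range of the constitutive subunits.

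Dedicated assembly chaperones of the core particle were nearer the median gene, with a median of 0.11 and 4 of 5 above 0. Psmg2 (0.37) and Pomp (0.25) were highest and Psmg4 (-0.08) lowest. Of 6 measured receptor and small-subunit genes, 5 were above 0 with a median of 0.33. The shuttle gene Ubqln4 (95.8 and 256) was at 0.98, the receptor gene Adrm1 at 0.52 and Rad23b at 0.48, while Sem1 was at -0.27 (399.8 and 451). The ubiquitin-activating enzyme genes Uba1 and Uba6 were at 0.30 and -0.22. As deposited, Psmg4, Sem1 and Uba6 were on the higher side in 3-NP, at 0.36, 0.17 and 0.21.

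Among the regulators, Nfe2l1 was at 0.40 (83.0 and 149), with further probe sets at 0.47 and -0.07. Nfe2l2, which encodes Nrf2, was at -0.03, or 0.41 as deposited. The small Maf genes, whose products pair with both factors on the element, were higher, Mafk at 1.45 (68.2 and 253) and Mafg at 0.85 (65.7 and 160.3). A dimmer probe set of Mafg (12.8 and 69), with saline at the floor, gave a bound of 1.57. Keap1, whose product holds Nrf2 back, was at 0.47. In the stress-linked list, 7 of 7 were above 0 with a median of 0.77. Hspa1a was at 2.81 and Hspb1 at 2.29, the proteasome-associated Zfand2a (41.2 and 112) was 1.99-fold higher, and the co-chaperone gene Bag3 was at 0.77.

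**Figure D4:**
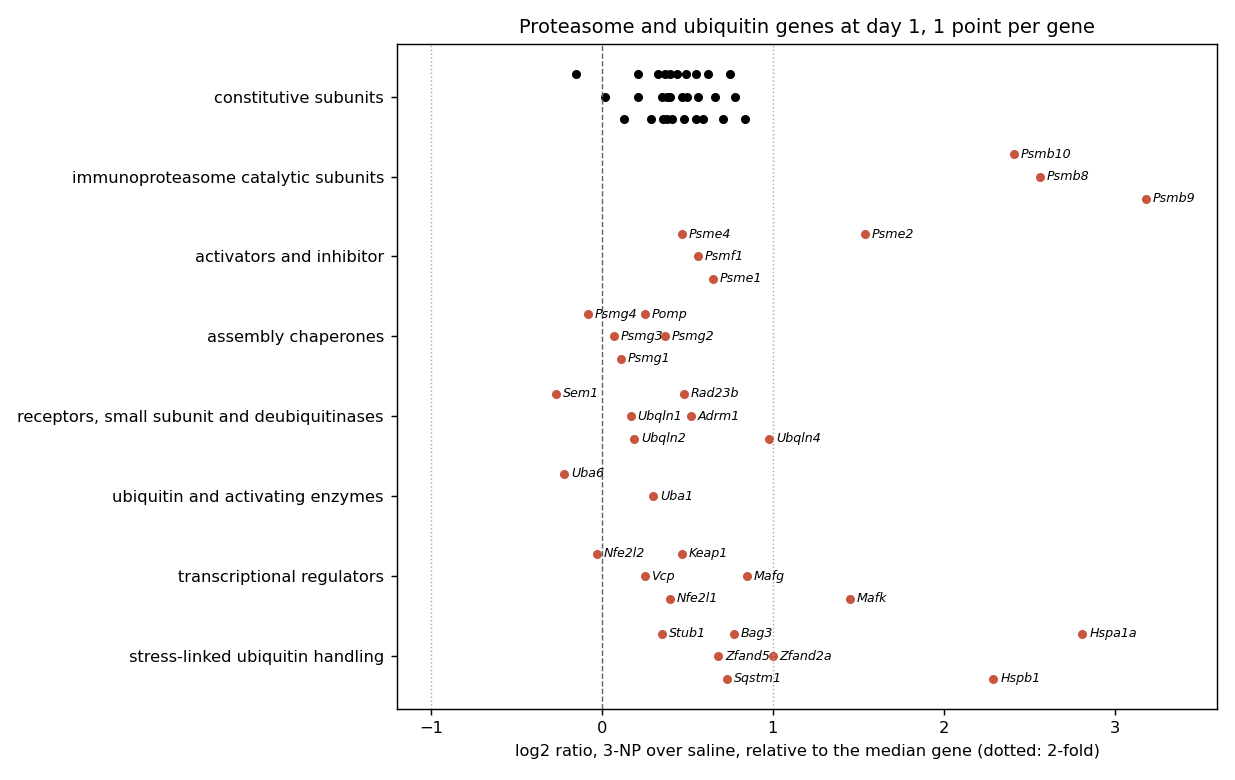
Log2 ratio at day 1 relative to the median gene, 1 point per gene, for the constitutive subunits (black) and other proteasome and ubiquitin genes (red), with dotted lines at 2-fold. The constitutive subunits lie between -0.15 and 0.84, whereas Psmb8, Psmb9 and Psmb10 lie between 2.41 and 3.18.

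Ribosomal protein genes, another set of subunits made together, give a scale for these values. For those of the cytosol, 40 genes, the median was 0.39 and the SD 0.24, with 39 of 40 above 0. The 8 past 1.5-fold (20%) are near the background of 17.1% of all genes. For the 69 of the mitochondrion the median was -0.08, which turned to 0.36 as deposited, with 29 above 0. The constitutive subunits were thus near the cytosolic ribosomal proteins in median and spread. The difference between these sets was not tested.

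Other measures moved with the day 1 pair. The 7 measured fibrocyte markers had a median of -1.01, with summed signals of 12105 in saline and 7534 in 3-NP, and 6 of 7 below 0. Of 10 macrophage and monocyte markers on the array, 7 were measured, with a median of 0.34 and 6 above 0. Their summed signals were 1561 and 2602, with Aif1, Itgam and Ptprc at the floor, the lowest level read as a signal, in both arrays. Most of the macrophage sum was Lyz2 (1183 and 1876), at a relative 0.23. These sums are as deposited and carry the 1.36-fold shift of the median gene. They were 2195 and 1096 for stria and melanocyte markers, with a relative median of -1.42 over 5 genes. Erythrocyte markers had 3832 and 7521, mostly Hbb (3695 and 7216), with 0.63 over 2 genes. Neutrophil markers had 139 and 184, with a relative median of -0.15 over S100a8 (-0.65) and S100a9 (0.34). Lymphocyte markers had 68.5 and 61.9, with 1 gene measured, Cd3g at -0.98. The part of cell composition in the subunit ratios was not tested, and in bulk tissue fewer cells of a type and less RNA per cell cannot be told apart.

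At day 3 few members could be read. Of the 9 on that array, 7 passed the filter on low signals, with Psmd9 and Psmd11 below it. Of the 7, 6 lay above the median gene, against 50% of all genes, with a median of 0.28. There were 2 at least 1.5-fold higher (19.1% of all genes), 1 at least 1.5-fold lower (19.9%), 0 at least 2-fold higher (9.21%) and 1 at least 2-fold lower (8.18%). As deposited, 6 of 7 were above 0, against 55.7% of all genes, and 3 at least 1.5-fold higher, against 23.2%. The SD for 1 probe set was 0.47 at day 3 (805 genes), and 3 of the 7 lay above it (23.9% of all genes), 0 above 2 SD (10.1%) and 1 below minus 1 SD (23.8%). Summed signals as deposited were 6917 in saline and 5854 in 3-NP for fibrocyte markers, 119.5 and 82.4 for macrophage markers and 3376 and 1587 for stria and melanocyte markers. Most of the fibrocyte sum was Coch (6548 and 5677), and most of the stria and melanocyte sum was Atp1b2 (2881 and 1356). The relative medians of these lists were -0.75 over 2 genes, -1.07 over 3 and -1.19 over 5. Among the macrophage markers, 1 of 3 was above 0, Fcgr1a at 0.02. Among the stria and melanocyte markers, 1 of 5 was above 0, Tyrp1 at a bound of 2.81 with saline at the floor. The part of these lists in the subunit ratios was not tested.

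Psmd7 was highest, with 163 in saline and 312 in 3-NP, a log2 ratio of 0.83. Psmc6, an ATPase not on the day 1 array, had 119 and 197, a log2 ratio of 0.62, and a further probe set (50.8 and 86.9) gave 0.67. Psma7 had 68.3 and 108, a log2 ratio of 0.56. These 3 genes were the members above the spread. Psmd14, the deubiquitinase of the lid, had 258 and 336, a log2 ratio of 0.28, by its brightest probe set, but 1.09 (164 and 375) and 0.59 (26.1 and 42.1) by others. All 3 of its probe sets were on the same side but differed in size. Psmd12, a lid subunit, had 201 and 251, a log2 ratio of 0.22. Psmc4 was dim, with 22.1 and 25.1, and was at 0.09.

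Psmb5 was the member below the median gene. Its brighter day 3 probe set had 23.3 in saline and 3.06 in 3-NP, below the floor of 9.85, and is therefore at least 2.54-fold lower. The 3-NP value is a bound, and the saline signal was little above the filter at 18.7. A dimmer probe set below the filter (6.71 and 10.8) went the other way, at 0.13 with saline at the floor. At day 1 a probe set of the other design gave Psmb5 signals of 819.5 and 1537. Without Psmb5, a choice made after seeing the data, the remaining 6 members had a median of 0.42. That all 6 lay above the median gene is fixed by leaving out the only member below it.

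**Figure D5:**
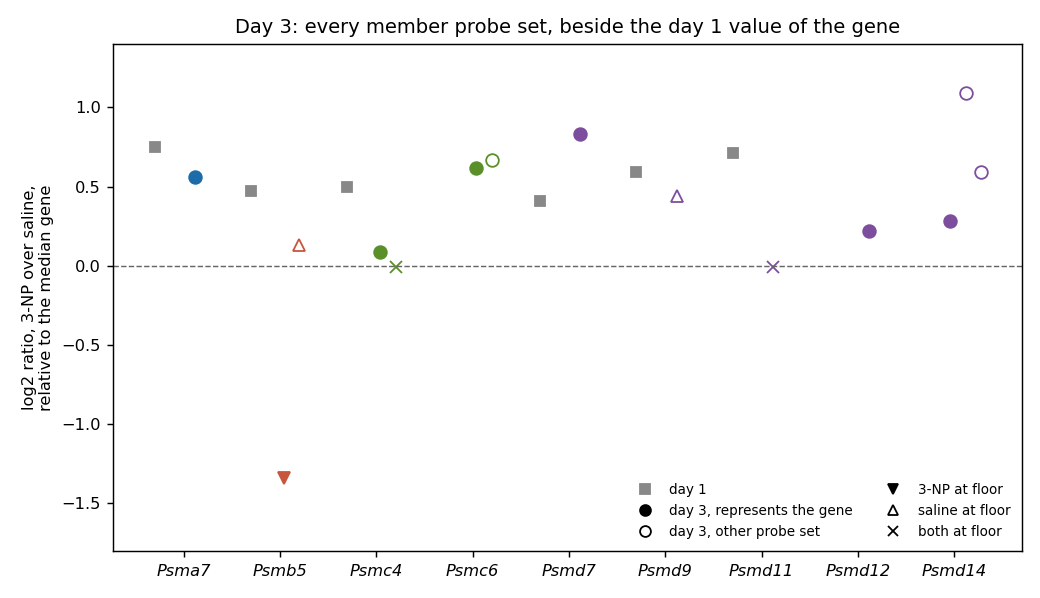
Log2 ratio relative to the median gene for each member probe set at day 3 (coloured by class; filled, the probe set that represents the gene), with the day 1 value of the same gene as a grey square. Psma7, Psmc4 and Psmd7 lie above 0 on both days, and Psmb5 is at 0.47 at day 1 and at a bound of -1.34 at day 3.

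Only 4 members were measured on both days, by different probe sets and on separate pairs of arrays. Psma7 was at 0.75 and 0.56, Psmc4 at 0.50 and 0.09, Psmd7 at 0.41 and 0.83, and Psmb5 at 0.47 and the bound. The change between days was not tested. A few related genes have the same probe set on both designs. Vcp, which helps to free Nrf1 from the endoplasmic reticulum, was at 0.25 at day 1 and 0.63 at day 3 (779 and 1289.8), Uba1 at 0.30 and 0.34, and Sem1 at -0.27 and -0.03. Uba6, by different probe sets, was at -0.22 at day 1 and at -0.41 at day 3 (122 and 97.9), where a dimmer probe set gave 0.73. Of other genes at day 3, the small Maf gene Maff had 2.43 in saline, below the floor, and 253 in 3-NP, at least 25.6-fold higher. Ngly1, whose product removes sugars from Nrf1, was at -0.68 (258 and 173), Rad23b was at 0.95 and the proteasome-bound deubiquitinase genes Usp14 and Uchl5 were at 0.15 and 0.17. Zfand5, with 3-NP at the floor, is a bound of -1.10 by its probe set on that design. By its brightest day 1 probe set, a different one, Zfand5 was on the other side, at 0.68 (551 and 1199.9).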

How the data were processed

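The authors deposited a linear signal intensity for each probe set. The submitters' processing notes name MAS5. No source used here gives the scaling target or detection calls. All values named here come from 4 arrays, 1 per group. Per the labels' protocols, 6 µg of total RNA entered the labelling.

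Probe sets were named from the platform annotation through gene identifiers (1 symbol for 12783 at day 1 and 7564 at day 3, several for 312 and 100, none for 2771 and 7612), and only those with 1 symbol were used. Of the probe sets assigned to several genes, 2 at day 1 and 1 at day 3 include a member. Signals below the 30th percentile of an array were set to it (17.1 and 22.0 at day 1, 9.22 and 9.85 at day 3). A probe set was kept when at least 1 array of the pair reached its 50th percentile, and a gene was represented by its brightest. The log2 ratio of 3-NP over saline was centred on the median measured gene. Every member is accounted for, and of each other proteasome or ubiquitin list up to 4 genes furthest from the median gene in each direction and day are named. Outside this rule, and after their values were seen, Vcp at day 1 is named for its shared probe set and Zfand5 at day 1 beside its day 3 value. So are a few markers, for the tissue, for lying at the floor or for their part in a list. The calculation was tested on simulated pairs with a known offset (Python 3.11.15, numpy 2.4.6, pandas 2.3.3; lowess from statsmodels 0.14.6). Members and lists were chosen with earlier results of these data known. The number of arrays limits the precision.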

Additional observations from a re-analysis of the deposited data

Results flagged for a closer look

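Psmb5 lay on opposite sides of the median gene on the 2 days, at 0.47 at day 1 and at a bound of -1.34 at day 3. The difference was not tested. The day 3 value comes from a dim probe set whose name ends in _x_at, a suffix Affymetrix gives where probes may match other sequences, with 23.3 in saline and 3.06 in 3-NP. The dimmer day 3 probe set gave 0.13.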

How the results depend on the processing

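At day 1, ratios as deposited moved the median of the 30 subunits from 0.43 to 0.87. The class medians moved to 0.92 (alpha), 0.81 (beta), 0.65 (ATPase) and 0.96 (non-ATPase). The count past 1.5-fold moved to 27, against 40.2% of all genes as deposited. The count past 2-fold moved to 7, which cannot be read against a background, because the share of all genes past 2-fold as deposited was not counted. Those shifts equal the centring itself. Under the other 9 alternatives the median stayed between 0.39 and 0.50, the count above 0 at 28 or 29 and the count past 1.5-fold between 5 and 10. At day 3 the median ranged from 0.25 to 0.55. The count of 2-fold lower members was 0, in place of Psmb5, with the floor at the 40th percentile (where Psmb5 is at -0.79), with the filter in both arrays and without Psmb5, an alternative chosen after seeing the data, as was centring day 1 on genes of similar signal. With no floor Psmb5 is at -3.03. The day 3 median of the regulators turned from 0.63 (3 genes) to -0.02 with the filter in both arrays, which leaves 2 genes. Of single-member values, 240 of 270 at day 1 and 60 of 62 at day 3 moved by less than the spread of a probe set, and the 30 others at day 1 were ratios as deposited. No paired analysis was possible because each group has 1 array. Signal near the floor limits Psmb5, Psmc4, Psmd9 and Psmd11 at day 3.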
